A study of Mus musculus with 7 samples.

Results

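The RNA exosome subunits were followed through mouse oocyte maturation as the 10 genes Exosc1 to Exosc10, chosen by their symbols among the 25908 entries that had a value in every library. All 10 were listed once in each of the 7 Smart-seq2 libraries, each made from 10 pooled oocytes. The study asked how RNA G-quadruplexes (rG4s), G-rich folds of RNA, affect maternal transcripts, and used the rG4-binding ligand BYBX to stabilise them. Fully grown oocytes came from 4-week-old C57BL/6 females primed with gonadotropin. The first group was 2 libraries of germinal vesicle (GV) oocytes, arrested before meiosis resumes, with the genotype label Control and the treatment label NO, although the study's methods describe DMSO for control GV oocytes. The second was 3 libraries of metaphase II (MII) oocytes with the genotype label Control and the treatment DMSO, the solvent. The third was 2 libraries of MII oocytes with the genotype label Treat and the treatment BYBX. MII oocytes had been cultured for 16 h in M16 medium. The sample labels and the library methods give neither the dose of BYBX nor whether BYBX-treated oocytes were picked by polar body emission. A dose is named in the study's figure legends, for MII comparisons that were analysed together with RNA-seq levels.

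The RNA exosome is the main 3′-to-5′ RNA-degrading machine of eukaryotic cells, and it processes or destroys RNA in both the nucleus and the cytoplasm. Its core is a barrel of ring subunits (Exosc4 to Exosc9) closed by a cap of RNA-binding subunits (Exosc1 to Exosc3). In mammals the barrel itself has no activity, and RNA is cut by the attached nucleases Exosc10, Dis3 or Dis3l. In oocytes, where transcription is silent after full growth, stored mRNAs are translated or degraded as meiosis resumes, and nuclear exosome activity, including that of Exosc10, is needed for normal oocyte growth and maturation.

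The sequence features that bear on the treatment were read first, since BYBX binds rG4s. A predicted rG4 motif, on the transcript strand 4 runs of 3 or more G spaced by 1 to 7 bases, was found in the longest coding transcript of 1 of the 10 subunits, Exosc6, against 18.7% of 8747 such transcripts of tested genes and 13.8% of the 3388 within the subunits' length range (1053 to 2790 bases). The Exosc6 motif lies in the coding region of its single exon, at chr8:111057043-111057069 on the plus strand of GRCm38. The only other one was in an Exosc5 transcript with a retained intron and no annotated coding region, at chr7:25667640-25667665 on the plus strand. Both are printed, with the G runs in capitals, because no other annotated transcript of the subunits matched this motif.
Exosc6: GGGttactGGGcagtGGGGaaggcGGG
Exosc5, retained intron: GGGGaGGGaaggaGGGaggcttaGGG
With runs of at least 2 G, all 10 transcripts held a motif, as did 97.2% of the 8747.

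Translation and tail length of maternal mRNAs at this stage depend in part on U-rich elements near the 3′ end, of which TTTTAT and TTTTAAT are the common forms in DNA letters. One of them stood within the last 100 bases of 4 of the 10 transcripts, against 20.2% of the 8747, and each was TTTTAT, printed here in capitals with 12 bases on either side.
Exosc3: aattataaaaacTTTTATataataaacttt
Exosc4: tcagccaaataaTTTTATgtttgaggatca
Exosc6: acataaaaactaTTTTATgactggaaatac
Exosc8: actgcacaggctTTTTATactaaataaata
The element began 30, 62, 74 and 42 bases before the transcript end, in that order. AATAAA or ATTAAA, the usual poly(A) signals, stood in the last 40 bases of 7 of the 10 transcripts and of 77.7% of the 8747. These matches are letters in annotated transcripts and not measured sites.

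The values are FPKM, fragment counts scaled for transcript length and library depth, which the authors scaled to an added ERCC spike-in and between batches to GV libraries. Total FPKM per library was 402113 to 489569 in GV, 109732 to 127254 in MII with DMSO and 201482 to 246710 in MII with BYBX, so every comparison of levels rests on this scaling, whose factors are not stated. Reverse transcription began at the poly(A) tail, and in pooled oocytes fewer molecules per cell, shorter tails and fewer intact cells cannot be told apart. All 9 oocyte markers were above 0 in every library, and the 11 granulosa and cumulus cell markers summed to 5.96 and 12.2 FPKM in GV and to 2.07 to 2.80 FPKM in the MII libraries. Erythrocyte markers summed to at most 1.13 FPKM. Nothing states that libraries of a group came from separate mice or cultures, so p-values measure the spread between these libraries, which may be technical.

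Summed over the 10 subunits, the exosome transcripts were at 576 and 552 FPKM in GV oocytes, at 101, 149 and 159 FPKM in MII with DMSO, and at 340 and 212 FPKM in MII with BYBX. The 3 groups did not overlap. The group mean in MII with DMSO was 0.242 of that in GV, and the mean with BYBX was 2.03 times that with DMSO and 0.490 of that in GV. As a share of all FPKM, the same sums were 0.118% and 0.137% in GV, 0.0916%, 0.121% and 0.125% with DMSO, and 0.138% and 0.105% with BYBX, which overlap. With every library set to the same total, the 3 ratios were 0.882, 1.08 and 0.955.

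Among the cap subunits, Exosc3 stood far above Exosc1 and Exosc2 in every library. Exosc1 (chr19:41922292-41933423, minus strand), a cap subunit with an S1 RNA-binding domain, was at 8.91 and 7.51 FPKM in GV, 0.457, 0.851 and 0.712 FPKM in MII with DMSO, and 2.78 and 2.74 FPKM in MII with BYBX. Exosc2 (chr2:31670715-31681349, plus strand), which has S1 and KH RNA-binding domains, was at 10.3 and 8.93 FPKM in GV, 0.899, 1.51 and 2.01 FPKM with DMSO, and 4.46 and 4.51 FPKM with BYBX. For both genes GV was highest, BYBX-treated MII was in between and DMSO-treated MII was lowest, with no overlap. Exosc3 (chr4:45316613-45342732, minus strand), the cap subunit altered in a form of pontocerebellar hypoplasia in people, was at 136 and 133 FPKM in GV, 46.2, 70.7 and 78.1 FPKM with DMSO, and 114 and 62.3 FPKM with BYBX. Its GV libraries were highest, but the MII groups overlapped, because the second BYBX library lay below 2 of the 3 DMSO libraries.

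Exosc4 and Exosc5, ring subunits related to bacterial RNase PH, kept the smallest share of their GV level in MII with DMSO among the subunits with a value over 0 in every library. Exosc4 (chr15:76327397-76330677, plus strand) was at 57.1 and 50.1 FPKM in GV, 1.40, 1.36 and 1.44 FPKM in MII with DMSO, and 18.2 and 15.6 FPKM with BYBX. Exosc5 (chr7:25659164-25671368, plus strand) went from 80.7 and 72.6 FPKM in GV to 0.331, 0.439 and 0.518 FPKM with DMSO, and was at 17.7 and 18.1 FPKM with BYBX. The 3 groups were fully separated for both, with little spread inside each group. Exosc6 (chr8:111056339-111057664, plus strand), the only intronless subunit gene, was at 6.48 and 9.74 FPKM in GV, 0.0398, 0 and 0.388 FPKM with DMSO, and 5.28 and 3.24 FPKM with BYBX. Its groups did not overlap, although all of its values were low and 1 library was listed at 0.

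The whole Exosc6 transcript (1326 bases) lies within an exon of an annotated transcript of Aars, the alanyl-tRNA synthetase gene, on the same strand, so reads of both genes cannot be told apart there. Aars itself was at 31.4 and 22.4 FPKM in GV, 1.19, 0.970 and 1.61 FPKM with DMSO, and 10.1 and 8.55 FPKM with BYBX. The Exosc6 values are therefore uncertain. Smart-seq2 does not keep strand, and 4 other subunits share exon bases with a coding gene on the opposite strand. These were 23.4% of the Exosc9 transcript with Ccna2 (20.1 to 47.7 FPKM over the libraries), 21.1% of Exosc5 with Tmem91 (at most 0.323 FPKM), 13.1% of Exosc4 with Oplah (at most 0.106 FPKM) and 6.8% of Exosc8 with Supt20 (0.527 to 52.2 FPKM). In MII with DMSO, Ccna2 was at 27.9, 24.7 and 20.1 FPKM, above Exosc9 in each library. How far Ccna2 reads add to the Exosc9 values was not tested. Stretches of the Exosc2 and Exosc4 transcripts also aligned at 90% identity or more with transcripts of 359 and 425 other genes, Oplah included. The longest had 227 bases for Exosc2 and, apart from the overlap with Oplah, 136 bases for Exosc4.

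The other ring subunits kept more of their GV level. Exosc7 (chr9:123113215-123136129, plus strand), also an RNase PH-like subunit, was at 137 and 148 FPKM in GV, 26.5, 39.0 and 46.6 FPKM in MII with DMSO, and 115 and 59.6 FPKM with BYBX. Exosc8 (chr3:54728678-54735393, minus strand), whose loss in people causes a pontocerebellar hypoplasia with spinal motor neuron disease, was at 37.9 and 37.2 FPKM in GV, 9.53, 14.0 and 11.8 FPKM with DMSO, and 22.6 and 14.5 FPKM with BYBX. For both, all BYBX libraries exceeded all DMSO libraries, by a narrow margin for Exosc8 (14.5 against 14.0 FPKM). Exosc9 (chr3:36552606-36565727, plus strand), a ring subunit first known as an autoantigen of polymyositis and scleroderma, was at 50.03 and 46.9 FPKM in GV, 3.30, 7.09 and 4.06 FPKM with DMSO, and 12.8 and 11.5 FPKM with BYBX. Exosc10 (chr4:148558429-148582401, plus strand), the nuclear exonuclease related to yeast Rrp6, was at 51.0 and 38.2 FPKM in GV, 11.9, 14.6 and 13.4 FPKM with DMSO, and 27.7 and 20.5 FPKM with BYBX. For Exosc9 and Exosc10 the 3 groups were again separated, in the order GV, BYBX, DMSO.

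**Figure D1:**
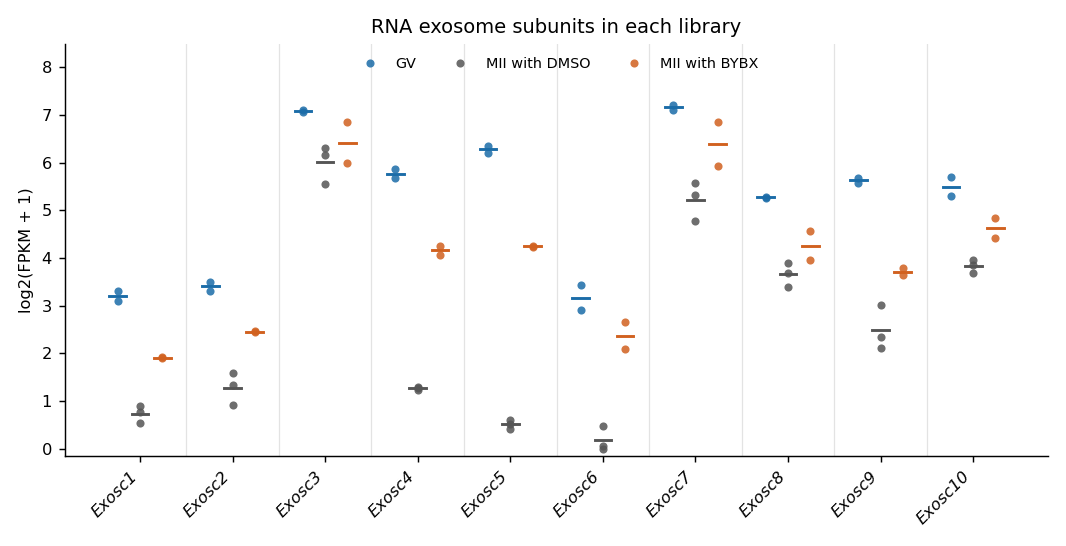
Level of each RNA exosome subunit as log2(FPKM + 1), with 1 point per library and a short line at the group mean, for GV (n = 2), MII with DMSO (n = 3) and MII with BYBX (n = 2). The points of the 3 groups are apart for every subunit except Exosc3, whose MII groups overlap, and the gap between GV and MII with DMSO is widest for Exosc5 and Exosc4.

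The order of the subunits by level changed between the stages. By group mean in FPKM, the order in GV was Exosc7, Exosc3, Exosc5, Exosc4, Exosc9, Exosc10, Exosc8, Exosc2, Exosc1 and Exosc6, and among these neighbours the libraries of Exosc9 and Exosc10, and of Exosc1 and Exosc6, overlapped. In MII with DMSO the order was Exosc3, Exosc7, Exosc10, Exosc8, Exosc9, Exosc2, Exosc4, Exosc1, Exosc5 and Exosc6. There the neighbours Exosc3 and Exosc7, Exosc10 and Exosc8, Exosc2 and Exosc4, Exosc1 and Exosc5, and Exosc5 and Exosc6 overlapped. Exosc5 ranked 3 of the 10 in both GV libraries, 9 in all 3 DMSO libraries, and 6 and 4 in the BYBX libraries. Exosc10 ranked 3 in every MII library.

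With BYBX the order was Exosc3, Exosc7, Exosc10, Exosc8, Exosc5, Exosc4, Exosc9, Exosc2, Exosc6 and Exosc1. Neighbours from Exosc3 to Exosc7, from Exosc10 to Exosc8, from Exosc8 to Exosc5, from Exosc5 to Exosc4 and from Exosc2 to Exosc6 overlapped. The Spearman rho of the group means over the 10 genes was 0.576 between GV and MII with DMSO, 0.818 between the MII groups and 0.794 between GV and MII with BYBX. These are descriptions over genes measured in the same libraries. The highest subunit exceeded the lowest by 21.2 and 19.7 times in the GV libraries, by 1160 and 201 times in the DMSO libraries in which none was listed at 0, and by 41.2 and 22.8 times in the BYBX libraries.

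The share that each subunit took of the summed exosome FPKM does not depend on how a library was scaled. Exosc3 and Exosc7 together made up 47.4% and 50.9% of the sum in GV, 72.3%, 73.4% and 78.4% in MII with DMSO, and 67.2% and 57.4% in MII with BYBX, with no overlap between groups. Exosc5 made up 14.0% and 13.1% in GV, 0.329%, 0.294% and 0.326% with DMSO, and 5.21% and 8.51% with BYBX. Its share was thus lowest in DMSO-treated MII and intermediate with BYBX.

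Exosc4 had shares of 9.92% and 9.08% in GV, 1.40%, 0.907% and 0.905% with DMSO, and 5.34% and 7.35% with BYBX, in the same order as Exosc5. The Exosc3 share was 23.6% and 24.2% in GV, 45.9%, 47.3% and 49.1% with DMSO, and 33.5% and 29.3% with BYBX, which is the opposite order. The Exosc7 share was 23.9% and 26.8% in GV, 26.4%, 26.1% and 29.3% with DMSO, and 33.7% and 28.0% with BYBX, and these groups overlapped. With 2 libraries against 3, an exact permutation test cannot give a p under 0.1, and with 2 against 2 it cannot go under 0.333.

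**Figure D2:**
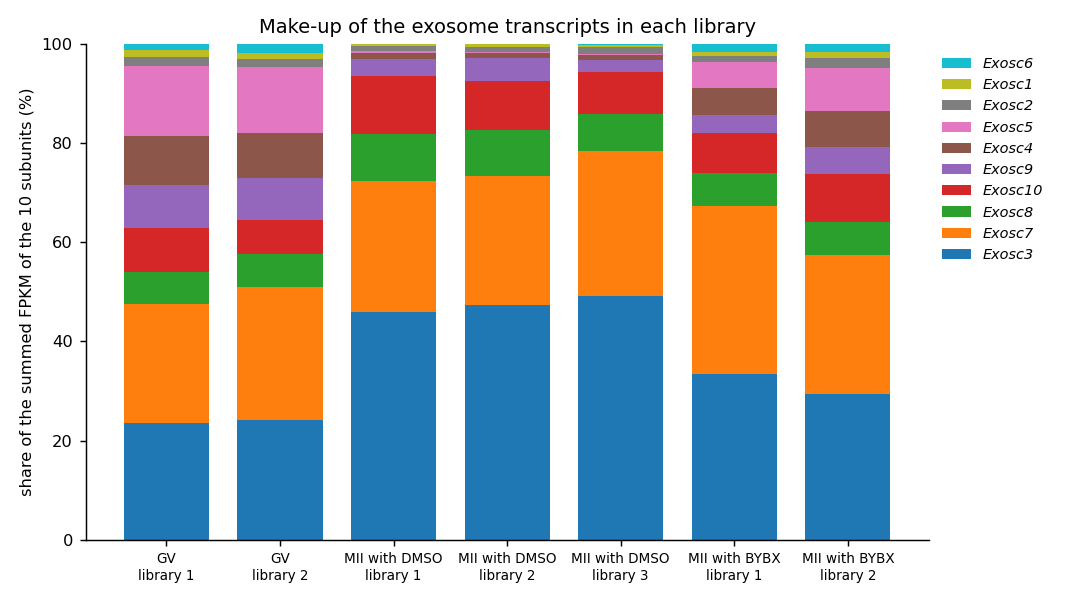
Share of the summed FPKM of the 10 subunits (%, vertical axis, from 0) taken by each subunit in each of the 7 libraries. Exosc3 and Exosc7 take 47.4% to 50.9% in GV and 72.3% to 78.4% in MII with DMSO, while Exosc5 goes from 13.1% or more in GV to at most 0.329%.

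The first comparison asked how the exosome transcripts changed in control maturation, from GV to MII with DMSO. In the deposited scale 10 of the 10 subunits fell, against 88.3% of the 9202 tested entries called lower and 92.5% whose libraries did not overlap in that direction, so the count was near the background. After each library was centred on its median, 4 subunits were lower (Exosc4, Exosc5, Exosc6 and Exosc9), 3 were higher (Exosc3, Exosc8 and Exosc10) and 3 did not pass the test, against 26.7% of tested entries lower and 48.8% higher. With every library at the same total, 6 were lower and 1, Exosc3, was higher, against 4557 lower and 2141 higher of the 9202 tested entries. Calls are at a Benjamini-Hochberg adjusted p under 0.05 from limma on log2(FPKM + 1), a scale that understates the change of low genes. All 10 passed the filter of 1 FPKM on the mean of the group means, but Exosc1, Exosc5 and Exosc6 had means under 1 FPKM in MII with DMSO and passed through the other groups.

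Exosc5 had the largest difference of the 10, with 76.7 ± 5.77 FPKM (SD, n = 2) in GV and 0.429 ± 0.0940 FPKM (SD, n = 3) in MII with DMSO, which left 0.560% of the GV level. Its log2 difference was -5.76 (SE 0.23, limma adjusted p = 2.56e-10), and 1.49% of tested entries lay at or below it. Over the alternatives without rescaling this difference ran from -7.19 to -5.69. Exosc4 kept 2.61% of its GV level, from 53.6 ± 4.91 to 1.40 ± 0.0418 FPKM, a log2 difference of -4.51 (SE 0.23, limma adjusted p = 7.33e-10). Both were lower under the 3 scalings. Exosc9 kept 9.94% (log2 difference -3.14, SE 0.28, limma adjusted p = 1.35e-07), and Exosc6, with its uncertain values, had a log2 difference of -2.99 (SE 0.25, limma adjusted p = 6.56e-08), or -5.41 with a pseudocount of 0.1. Exosc1 kept 8.21% of the GV level (log2 difference -2.46, SE 0.21, limma adjusted p = 6.71e-08). Exosc2 kept 15.3%, near the 16.3% that was the median over the 9194 tested entries above 0 in GV.

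The subunits that kept most were Exosc3, with 48.3%, and Exosc8, with 31.3% of the GV level. Exosc3 went from 135 ± 1.63 to 65.0 ± 16.7 FPKM, a log2 difference of -1.07 (SE 0.31, limma adjusted p = 0.00528) that was 0.79 at the same total and 1.23 after centring. Without the first GV library its adjusted p was 0.0529. Exosc10 kept 29.8% and Exosc7 26.2%, with log2 differences of -1.67 and -1.94 (SE 0.26 and 0.32, limma adjusted p = 3.22e-05 and 5.91e-05). Exosc8 had a log2 difference of -1.61 (SE 0.27, limma adjusted p = 6.75e-05). The median log2 difference of the 10 was -2.29, beside -1.83 over all tested entries, and after centring it was 0.0093 beside 0.47.

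The second comparison asked how the subunits differed between BYBX and its solvent at MII. In the deposited scale 8 of 10 were higher with BYBX and none was lower, against 65.2% of tested entries called higher. The libraries of 9 of 10 did not overlap, against 79.0% of tested entries. After median centring 3 were higher (Exosc4, Exosc5 and Exosc6) and 3 were lower (Exosc3, Exosc8 and Exosc10), against 18.4% of tested entries higher and 43.9% lower. At the same total 4 were higher, against 3672 of the 9202 tested entries. The median log2 difference of the 10 was 1.17, beside 0.84 over all tested entries, and after centring it was -0.10 beside -0.44.

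Exosc5, at 17.9 ± 0.234 FPKM (SD, n = 2) with BYBX, had a group mean 41.7 times that with DMSO, a log2 difference of 3.73 (SE 0.23, limma adjusted p = 4.24e-08). The DMSO mean of Exosc5 was only 0.429 FPKM, so its fold is uncertain. Over the alternatives without rescaling its log2 difference ran from 3.68 to 5.10. Exosc4, with a mean of 16.9 ± 1.81 FPKM, was at 12.1 times its level with DMSO (log2 difference 2.89, SE 0.23, limma adjusted p = 2.23e-07). For Exosc6 the log2 difference was 2.19 (SE 0.25, limma adjusted p = 5.47e-06), with no fold given, since 1 DMSO library was listed at 0. This value rests on the pseudocount of 1, and with a pseudocount of 0.1 it was 4.48, above the 3.50 of Exosc4 in the same setting. These 3 were the subunits called higher with BYBX also after centring, with centred log2 differences of 2.45, 1.62 and 0.91.

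The cap subunits Exosc1 and Exosc2 and the ring subunits Exosc7 and Exosc9 were higher with BYBX than with DMSO by similar amounts in the deposited scale. Exosc9 had a log2 difference of 1.23 (SE 0.28, limma adjusted p = 0.00187), Exosc1 of 1.17 (SE 0.21, adjusted p = 0.000237), Exosc2 of 1.18 (SE 0.24, adjusted p = 0.000759) and Exosc7 of 1.16 (SE 0.32, adjusted p = 0.00600). After centring the 4 were at -0.053, -0.10, -0.10 and -0.12, above the median of -0.44 over all tested entries. Exosc7 rested on the first BYBX library, without which its log2 difference was 0.69 (limma adjusted p = 0.123), and with no filter on low values its adjusted p was 0.051. Exosc10 was 0.80 higher with BYBX than with DMSO (SE 0.26, limma adjusted p = 0.0146). This call also rested on the first BYBX library, without which the difference was smaller, at 0.59.

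Exosc8 and Exosc3 did not pass the test against DMSO. The log2 difference of Exosc8 was 0.60, with a 95% interval from 0.02 to 1.18 (limma adjusted p = 0.0657), and without the second BYBX library it was 0.90 (adjusted p = 0.0297). That of Exosc3 was 0.41, with an interval from -0.26 to 1.08 (limma adjusted p = 0.258), and without the first BYBX library it was -0.025.

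**Figure D3:**
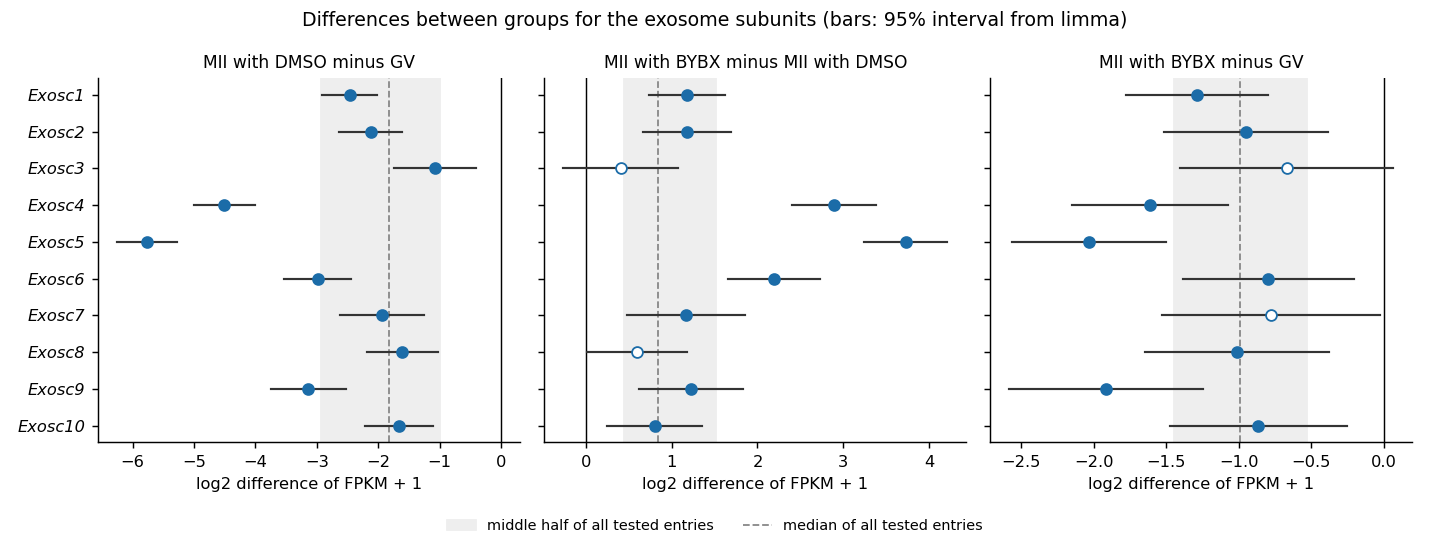
Difference in log2(FPKM + 1) (horizontal axis) of each subunit in the 3 comparisons, with 95% intervals from limma and filled points at an adjusted p under 0.05. The dashed line and the grey band give the median and the middle range, lower to upper quartile, of the 9202 tested entries, and Exosc4 and Exosc5 lie outside the band in every panel.

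The third comparison set BYBX-treated MII oocytes against GV oocytes. It shares the BYBX libraries with the second comparison and the GV libraries with the first, so the comparisons are not independent. In the deposited scale 8 of 10 subunits were lower with BYBX than in GV and none was higher, against 69.2% of tested entries called lower, and all 10 had no overlap, against 82.3%. After centring 3 were lower (Exosc4, Exosc5 and Exosc9) and none was higher, against 13.6% lower and 15.2% higher among tested entries. At the same total 2 were lower, against 1222 of the 9202 tested entries. The median log2 difference of the 10 was -0.98, beside -0.99 over all tested entries, and after centring it was 0.044 beside 0.037.

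Exosc5 kept 23.4% of its GV level with BYBX and Exosc9 kept 25%, where the median over the 9194 entries was 43.4%. Their log2 differences were -2.04 (SE 0.25, limma adjusted p = 6.67e-05) and -1.92 (SE 0.31, limma adjusted p = 0.000174). Exosc4 kept 31.5% (log2 difference -1.61, limma adjusted p = 0.000136) and Exosc1 33.6% (-1.29, adjusted p = 3e-04). Exosc2, Exosc8, Exosc6 and Exosc10 were at 46.6%, 49.4%, 52.6% and 54.0% of GV, with log2 differences of -0.95, -1.01, -0.80 and -0.86 (limma adjusted p = 0.00580, 0.00795, 0.0197 and 0.0150). The calls of Exosc6, Exosc8 and Exosc10 did not hold without the second BYBX library, with limma adjusted p of 0.145, 0.101 and 0.129. Those of Exosc2 and Exosc10 did not hold without the first GV library (limma adjusted p = 0.0501 and 0.0985), nor that of Exosc6 without the second (adjusted p = 0.151) or with a pseudocount of 0.1 (adjusted p = 0.195).

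Exosc3 and Exosc7, at 65.5% and 61.1% of GV, did not pass the test. Their log2 differences were -0.67 (95% interval -1.40 to 0.07, limma adjusted p = 0.0956) and -0.78 (95% interval -1.53 to -0.02, limma adjusted p = 0.0624). Without the first BYBX library both were called lower, at -1.10 and -1.24 (limma adjusted p = 0.0213 and 0.0116), and Exosc7 also without the first DMSO library, with the filter at 5 FPKM and in a fit of these 2 groups alone (limma adjusted p = 0.0309, 0.0497 and 0.0412). Both remained the most abundant subunits in every library.

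**Figure D4:**
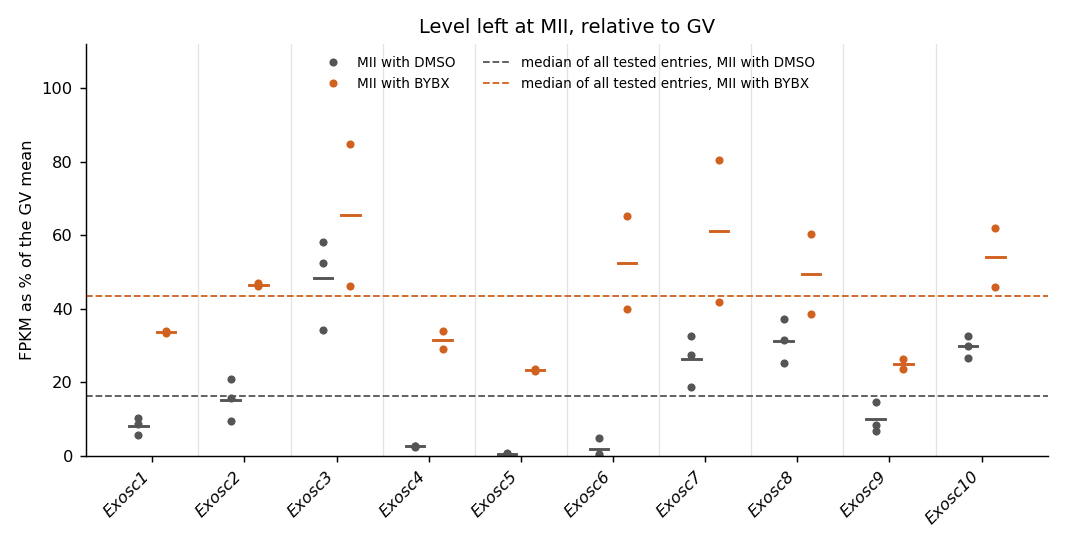
FPKM of each subunit in the MII libraries as a percentage of its GV mean (vertical axis, from 0), with 1 point per library and a line at the group mean. The dashed lines mark the medians over the 9194 tested entries above 0 in GV, 16.3% for MII with DMSO and 43.4% for MII with BYBX. The group means of Exosc1, Exosc4, Exosc5 and Exosc9 lie below the median of the same group in both.

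The 3′ UTRs of the subunits ranged from 87 bases in Exosc10, 100 in Exosc8, 126 in Exosc7, 214 in Exosc3 and 220 in Exosc9 to 472 in Exosc6, 779 in Exosc2, 927 in Exosc5, 962 in Exosc4 and 1690 in Exosc1. Over the 10 genes its length had a Spearman rho of -0.71 with the log2 difference from GV to MII with DMSO and of 0.69 with that between BYBX and DMSO. Transcript length, coding length, GC content and exon number had values between -0.35 and 0.42 in the first comparison and between -0.39 and 0.44 in the second. These rhos come from 10 genes of the same libraries, and the 2 comparisons share the DMSO libraries. Lengths are those of the longest annotated coding transcripts, and the 3′ ends present in the oocytes were not measured. The levels of Exosc6, included here, are uncertain. The 4 subunits with TTTTAT near the end included Exosc3 and Exosc8, which kept 48.3% and 31.3% of the GV level in MII with DMSO, as well as Exosc4, which kept 2.61%, and Exosc6, whose 3 libraries were at 0.388 FPKM or below.

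The nucleases and cofactors that work with the core were counted from a list of 18 partner genes. From GV to MII with DMSO 13 of the 18 fell and 5 did not pass the test, against 88.3% of tested entries called lower, with a median log2 difference of -1.79 in the deposited scale. After centring 3 were lower and 9 higher, against 26.7% and 48.8% of tested entries. Dis3, Dis3l, C1d, Skiv2l, Ttc37 and Nrde2 had means under 1 FPKM in MII with DMSO and passed the filter through the other groups. Dis3l, the cytoplasmic exosome nuclease, was at 79.6 and 43.3 FPKM in GV, 0.859, 0.888 and 0.717 FPKM with DMSO, and 7.96 and 11.2 FPKM with BYBX. Dis3, the nuclear one, was at 3.15 and 2.08 FPKM in GV, 0.0815, 0.0855 and 0.1499 FPKM with DMSO, and 0.649 and 0.570 FPKM with BYBX. Both nucleases had fully separated groups in the order GV, BYBX, DMSO. The log2 difference of Dis3l from GV was -5.04 with DMSO (SE 0.28, limma adjusted p = 1.38e-09), and with BYBX it was 2.52 above DMSO (SE 0.28, adjusted p = 4.10e-06).

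Nuclear cofactors behaved unequally. Mphosph6, which holds the helicase Mtrex to the exosome, was at 986 and 950 FPKM in GV, 727, 830 and 909 FPKM with DMSO, and 694 and 718 FPKM with BYBX. It was the highest of the 10 subunits and 18 partners in every library, and passed the test in no comparison (limma adjusted p = 0.302, 0.391 and 0.104), although after centring its log2 differences of 2.06, -1.49 and 0.57 all passed. Mtrex itself was at 24.9 and 17.4 FPKM in GV, 1.25, 1.202 and 0.585 FPKM with DMSO, and 6.62 and 6.73 FPKM with BYBX, with no overlap. Its log2 difference was -3.46 with DMSO against GV (SE 0.25, limma adjusted p = 1.51e-08) and 1.95 with BYBX against DMSO (SE 0.25, adjusted p = 1.52e-05).

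The NEXT complex, which brings short nuclear transcripts to the exosome, split in the same way. Rbm7 was at 168 and 125 FPKM in GV, 8.02, 7.12 and 9.502 FPKM with DMSO, and 46.4 and 51.2 FPKM with BYBX. Zcchc8 was at 98.1 and 59.4 FPKM in GV, 60.4, 53.4 and 53.3 FPKM with DMSO, and 60.3 and 57.6 FPKM with BYBX. On the log2 scale Rbm7 was 4.00 lower with DMSO than in GV and 2.44 higher with BYBX than with DMSO (SE 0.25 for both, limma adjusted p = 4.51e-09 and 2.38e-06). The groups of Zcchc8 overlapped in both comparisons (limma adjusted p = 0.126 and 0.788). Nrde2, which binds Mtrex and restrains its action, was at 4.17 and 2.44 FPKM in GV, listed at 0 in 2 of the 3 DMSO libraries and at 0.00881 FPKM in the other, and at 0.496 and 0.893 FPKM with BYBX.

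Of the SKI complex, which feeds cytoplasmic RNA to the exosome, Skiv2l was at 7.42 and 6.07 FPKM in GV, 0.759, 0.710 and 1.40 FPKM with DMSO, and 4.18 and 3.51 FPKM with BYBX, with separated groups. Its partner Ttc37 was at 3.35 and 1.31 FPKM in GV, 0.889, 0.327 and 0.422 FPKM with DMSO, and 0.503 and 1.07 FPKM with BYBX, so its MII groups overlapped. The log2 differences between BYBX and DMSO were 1.32 for Skiv2l, 1.27 for Wdr61, 0.76 for Hbs1l and 0.21 for Ttc37 (limma adjusted p = 0.000192, 0.00155, 0.0263 and 0.492). After centring they were 0.043, -0.011, -0.52 and -1.07, beside a median of -0.44 over all tested entries.

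Between BYBX and DMSO 10 of the 18 partners were higher and 8 did not pass the test, against 65.2% of tested entries called higher, with a median log2 difference of 0.54 in the deposited scale. After centring 10 were lower and 3 higher, against 43.9% and 18.4% of tested entries. Between BYBX and GV 11 were lower and 7 did not pass, against 69.2% of tested entries called lower, with a median of -0.86. After centring 1 was lower and 3 were higher, against 13.6% and 15.2% of tested entries. Pabpn1, the nuclear poly(A)-binding protein of the PAXT connection, varied inside its groups, with 18.7, 65.4 and 55.4 FPKM with DMSO and 90.3 and 22.6 FPKM with BYBX, and 26.5 and 34.0 FPKM in GV. Its groups overlapped in each comparison.

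**Figure D5:**
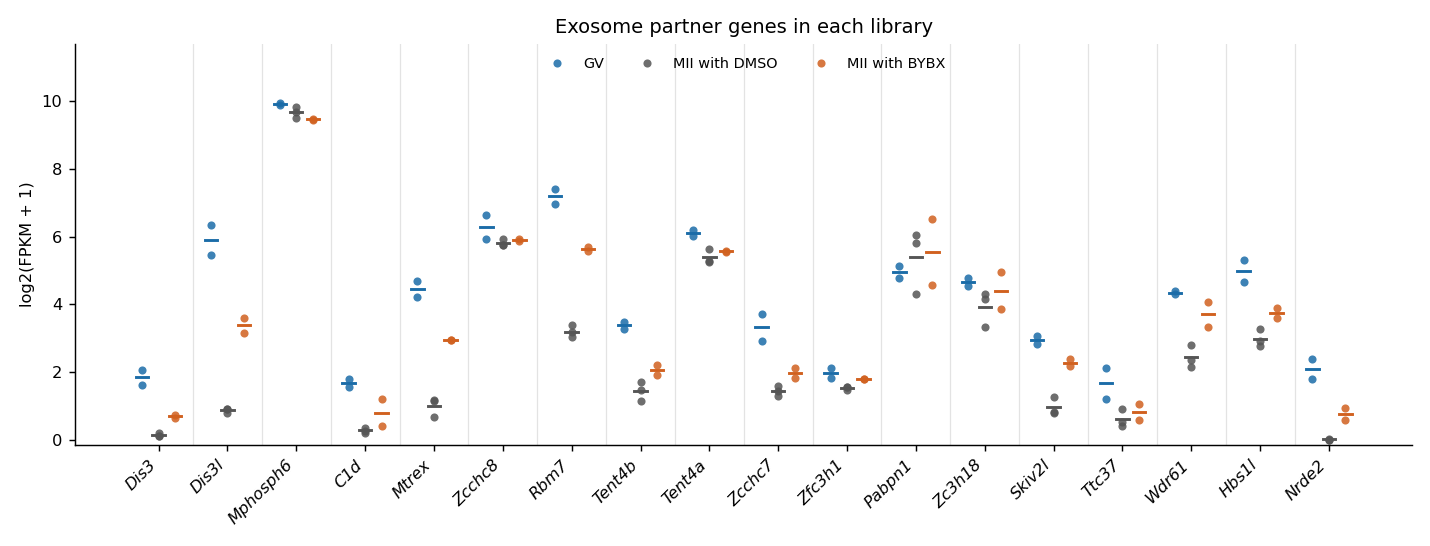
Level of the 18 partner genes of the exosome as log2(FPKM + 1), with 1 point per library and a line at each group mean. Mphosph6 is the highest in every library, at 694 FPKM or more, while Nrde2 lies lowest in MII with DMSO, at 0 to 0.00881 FPKM.

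Genes of other decay routes were counted for comparison, from lists likewise chosen with earlier results known. Of 11 genes of the CCR4-NOT deadenylase, 10 fell from GV to MII with DMSO in the deposited scale (median log2 difference -2.03; after centring 2 lower and 5 higher), 7 were higher with BYBX than with DMSO (median 0.92; after centring 4 lower and 2 higher) and 5 were lower with BYBX than in GV (median -0.83; after centring 2 lower and 2 higher). Of 16 genes of decapping and 5′ decay, 13 passed the filter, and 12, 10 and 6 of them were called in the same 3 directions, with medians of -1.24, 0.88 and -0.62. Over all tested entries these directions held 88.3%, 65.2% and 69.2%. Cnot1, Cnot10, Ddx6, Lsm6 and Pnrc2 had means under 1 FPKM in MII with DMSO and passed the filter through the other groups. After centring, 3 of the 13 tested 5′ decay genes were lower and 7 higher, 5 lower and 4 higher, and 0 lower and 2 higher. Of all tested entries, centring left 26.7% lower and 48.8% higher, 43.9% lower and 18.4% higher, and 13.6% lower and 15.2% higher. Dis3l2, a nuclease of the Dis3 family that acts without the exosome, was at 3.71 and 2.92 FPKM in GV, 1.496, 1.78 and 1.30 FPKM with DMSO, and 2.34 and 1.64 FPKM with BYBX. Its log2 difference from GV with DMSO was -0.77 (limma adjusted p = 0.00345; after centring 1.53), and the MII groups overlapped.

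The tested genes whose profiles over the 7 libraries lay nearest to the mean profile of the subunits, by Euclidean distance of centred log2(FPKM + 1), were Rab17 (0.21), Araf (0.21), Fasn (0.22), Sys1 (0.23) and Atp6v0b (0.23). Among the subunits themselves this distance ran from 0.51 for Exosc1 to 3.54 for Exosc5. Fasn, the fatty acid synthase gene, for example, had group means of 12.1, 0.953 and 4.99 FPKM in GV, MII with DMSO and MII with BYBX.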

How the data were processed

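Smart-seq2 cDNA of 10 oocytes per library was sequenced as paired-end reads without strand. The authors trimmed reads with Trim Galore 0.6.7, aligned them to mm10 with HISAT2 2.2.1, kept uniquely mapped reads and estimated FPKM with Cufflinks 2.2.1 on UCSC gene models. The deposited FPKM values were normalised by the authors to ERCC and, between batches, to GV samples. Read depth is unknown, so no counting interval is given. Groups came from the sample labels. Of 25912 entries, 4 with a missing value were left out. No column of another sample was present.

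Limma 3.58.1 in R 4.3.3 (lmFit, eBayes with intensity trend) used log2(FPKM + 1) of the 9202 entries averaging 1 FPKM or more over the group means, with 7 libraries, 3 groups and 4 residual degrees of freedom, and tested on simulated data. P-values were Benjamini-Hochberg adjusted over all tested entries. The genes named were the 10 subunits, the partner list and the 5 nearest profiles by a fixed rule. Members and lists were chosen with earlier results of these data known, and the partners and other genes given with values were picked from their lists after their values were seen, as were the 3′ end elements. Alternatives were another pseudocount, other filters, same total FPKM, median centring, fits of 2 groups, a replicate block, no trend, a 2-fold minimum and leaving out each library. Transcripts were from GENCODE vM21 on GRCm38 (mm10 in UCSC naming), matched by symbol for 10 of 10 subunits, with look-alikes searched by BLAST 2.17.0. Python 3.11.15 was used for tables and plots.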

Additional observations from a re-analysis of the deposited data

How the results depend on the processing

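Counts of calls kept their direction under another pseudocount, other filters, 2-group fits and no trend, but depended on the scale. With the same total FPKM, between GV and MII with DMSO 6 subunits were lower and 1 higher at MII (10 and 0 as deposited), those higher with BYBX than with DMSO 4 (8), and those lower with BYBX than in GV 2 (8). With median centring these were 4, 3, 3 and 3, and 3 subunits were lower with BYBX than with DMSO. Of the 9202 tested entries, 4557, 2141, 3672 and 1222 were called in these directions at the same total. With centring 2456, 4494, 1696 and 1250 were, and 4040 were lower with BYBX than with DMSO. At a 2-fold minimum 5 subunits were lower with BYBX than in GV, against 4529 of the tested entries. The summed ratios at the same total were 0.882, 1.08 and 0.955. Subunits with an rG4 motif numbered 10 with runs of at least 2 G and 2 over any transcript.

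For partner genes, the count that fell from GV to MII with DMSO (13) was 6 with the 5 FPKM filter, which tests fewer genes, 7 with the same total and 3 with centring, and the count higher (0) was 6 and 9 with these scalings and 0 to 1 without single libraries. Higher with BYBX than with DMSO (10) were 5, 6 and 3 in the same order and 5 at a 2-fold minimum, and lower were 3 with the same total and 10 with centring. Lower with BYBX than in GV (11) were 4, 1 and 1, and higher were 3 with centring and 0 to 1 without single libraries. With the 5 FPKM filter, 4842, 3686 and 3779 of 5508 tested entries were called in the 3 main directions. Between BYBX and DMSO, 756 of 9202 entries were lower at the same total and 3875 were higher at a 2-fold minimum. Beyond the scaling and the filter the cause was not tested.

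Log2 differences changed sign as follows, but neither scaling put the typical entry at 0. In the order of the 3 comparisons, the median over all tested entries was -0.56, 0.34 and -0.17 at the same total. With centring it was 0.47, -0.44 and 0.037. From GV to MII with DMSO, the same total gave 0.79 for Exosc3, 0.19 for Exosc8 and 0.14 for Exosc10, and centring gave 0.18 for Exosc2, 1.23 for Exosc3, 0.36 for Exosc7, 0.69 for Exosc8 and 0.64 for Exosc10. Between BYBX and DMSO, the same total gave -0.48 for Exosc3, -0.24 for Exosc8 and -0.045 for Exosc10, and centring gave -0.10 for Exosc1, -0.10 for Exosc2, -0.87 for Exosc3, -0.12 for Exosc7, -0.68 for Exosc8, -0.053 for Exosc9 and -0.48 for Exosc10. Leaving out single libraries moved Exosc3 there from -0.025 to 0.84. Between BYBX and GV, the same total gave 0.31 for Exosc3, 0.035 for Exosc6, 0.21 for Exosc7 and 0.10 for Exosc10, and centring gave 0.075 for Exosc2, 0.36 for Exosc3, 0.23 for Exosc6, 0.25 for Exosc7, 0.013 for Exosc8 and 0.16 for Exosc10. Of the 10, Exosc4 and Exosc5 alone were called in all 3 comparisons under centring, in the same directions as deposited. The comparisons share libraries, and no count over all tested entries stands beside this one.

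Libraries with equal replicate numbers had correlations of deviations of 0.49 and 0.28 between GV and MII with DMSO. They were -0.60 and -0.35 between the MII groups, and -0.33 for both pairs of BYBX and GV. With 2 or 3 libraries per group, whose deviations are tied to each other, these values cannot decide whether equal numbers share a batch. With the replicate block 10, 8 and 8 subunits were called in the 3 main directions, as without it, and 14, 7 and 11 partner genes. The same directions held 7777, 5266 and 5962 of the 9202 tested entries with the block, and 8127, 6000 and 6370 without it.

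With 2 or 3 libraries per group and unknown depth, values under about 1 FPKM, as of Exosc5 and Exosc6 in MII with DMSO, have no counting error attached.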
